A study of Mus musculus with 6 samples.

Results

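The 39 marker genes of macrophages and osteoclasts described here are a fixed list of names, drawn up with earlier results of these data known, and were looked up on 6 arrays of murine osteoblast cultures. Each of the 39 genes has 1 probeset, a group of short probes that together report a transcript, out of 19938 genes that are named alone by a probeset. The cells were primary osteoblasts of 3 male wild-type (WT) C57BL6/J mice aged 8 to 12 weeks, grown out from long bones, used at passage 2 to 3 and differentiated osteogenically for 14 days. The mice carry the numbers 2, 4 and 5. Each mouse gave an unstimulated culture and a culture stimulated with recombinant murine C5a, and both spent 4 h in proliferation medium, with 1 array per culture. C5a is the anaphylatoxin released from complement component C5, and its receptor C5aR1 is well known from myeloid cells. The cultures grew out of bone chips and no sort for osteoblasts is described in the sources used here, so that other cells of bone can persist in them.

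Macrophages and osteoclasts belong to one myeloid lineage. The factor PU.1 (Spi1) and the receptor of M-CSF (Csf1r) are needed for both. Monocytic precursors that receive RANKL through RANK (Tnfrsf11a), together with a costimulus through adaptors with an immunoreceptor tyrosine-based activation motif (ITAM), switch on NFATc1, fuse and become bone-resorbing osteoclasts. Resident macrophages of bone, often called osteomacs, lie close to osteoblasts and are known to be carried over into osteoblast preparations. In RNA of a whole culture, fewer cells of a type and less RNA per cell cannot be told apart.

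The deposited values are log2 intensities after the robust multiarray average (RMA), with array medians of 5.89 to 5.93. A gene was taken as above background on an array when its value exceeded the 95th percentile of 1035 probesets of olfactory receptor genes, which was 5.30 to 5.46. Values of different probesets are not comparable with each other, so that the tests and differences below are made within a gene. Medians of levels over a list and the summed intensity mix probesets and only describe the arrays. The collagens and Sparc of the osteoblast matrix lay far above background on all arrays, at 13.32 to 13.79 for Col1a1 and at 14.02 to 14.20 for Sparc. The arrays of mouse 5 stood apart. Of all 35556 probesets, 2.5% differed between the mice, and the pairwise comparisons called 0.427% higher and 0.298% lower in mouse 4 than in mouse 2, 0.939% higher and 1.21% lower in mouse 5 than in mouse 2, and 0.503% higher and 1.32% lower in mouse 5 than in mouse 4. These shares are from limma with the treatment as covariate, at an adjusted p under 0.05, and are the background for the counts of marker genes below.

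The transcripts of macrophages were far lower in the cultures of mouse 5 than in those of mice 2 and 4. Between the mice, 26 of 39 marker genes differed by the moderated F test of limma. In mouse 5, 27 were lower and 0 higher than in mouse 2, and 26 were lower and 0 higher than in mouse 4. Between mice 4 and 2, 2 were higher and 0 lower. The median log2 difference of the 39 genes was -2.72 for mouse 5 against mouse 2, -3.17 for mouse 5 against mouse 4 and 0.29 for mouse 4 against mouse 2, whereas it was 0.01, 0.03 and -0.01 over all genes. With values under the background level set to that level, the medians of the 39 genes were -2.61, -2.90 and 0.29. Each mouse has 2 arrays, 1 of each treatment, so that these tests measure the spread between the cultures of an animal. When either array of mouse 2 was left out, 0 genes were called lower in mouse 5 than in mouse 2, and without any single array of the other mice 20 to 26 were. Against mouse 4, 22 to 25 were called without any single array. The F test called 20 to 26 of the genes without any single array. Summed over the 39 probesets, the linear intensity was 37885, 48579 and 7399 in the unstimulated cultures of mice 2, 4 and 5 and 30406, 37667 and 8034 in the C5a cultures.

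**Figure D1:**
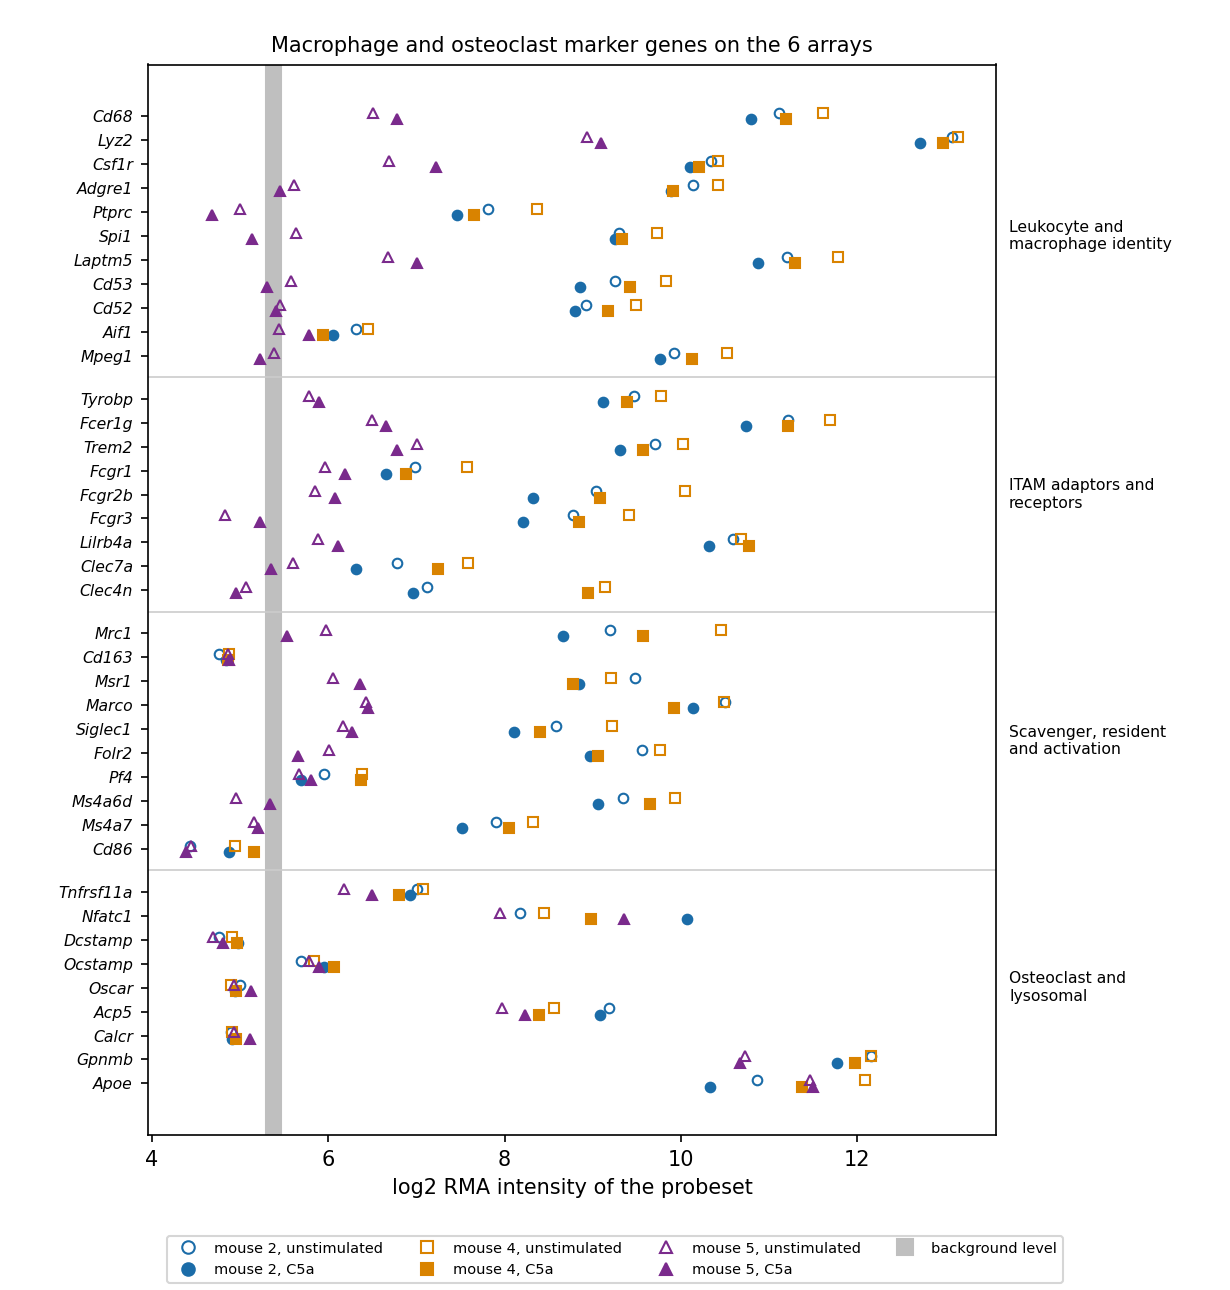
Log2 RMA intensity (x axis) of the 39 marker genes (y axis, grouped by role) on the 6 arrays. Circles, squares and triangles are mice 2, 4 and 5, open symbols are unstimulated and filled symbols are C5a cultures, and the grey band spans the background level of 5.30 to 5.46. In the upper 3 groups most triangles lie left of the circles and squares, with median levels over all 39 genes of 5.78 and 5.81 in mouse 5 and 8.85 to 9.49 in mice 2 and 4.

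The 4 genes that serve as defining markers of macrophages and osteoclast precursors came out alike. Cd68, a lysosomal glycoprotein of macrophages, had 11.11, 11.62 and 6.51 in the unstimulated cultures of mice 2, 4 and 5 and 10.79, 11.19 and 6.78 in the C5a cultures. Adgre1, which encodes the F4/80 antigen, had 10.14, 10.42 and 5.61 unstimulated and 9.88, 9.90 and 5.45 with C5a. Both arrays of mouse 5 thus lay far below the other 4, whatever the treatment. Lyz2, the lysozyme of myeloid cells, had 13.08, 13.14 and 8.93 unstimulated and 12.71, 12.97 and 9.09 with C5a. Csf1r had 10.34, 10.42 and 6.68 unstimulated and 10.10, 10.21 and 7.23 with C5a. The differences between mouse 5 and mouse 2 were -4.31 (SE 0.19) for Cd68, -4.48 (SE 0.12) for Adgre1, -3.89 (SE 0.15) for Lyz2 and -3.26 (SE 0.22) for Csf1r on the log2 scale. As linear ratios the genes were 19.8-fold, 22.3-fold, 14.8-fold and 9.60-fold lower in mouse 5, with adjusted p-values of 0.0015 to 0.0082 from limma. All 4 markers remained above background in mouse 5, although Adgre1 did so narrowly.

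Of 11 genes of leukocyte and macrophage identity, 10 were called lower in mouse 5 than in each of the other mice. Mpeg1, which encodes the pore-forming perforin-2, had 9.91 and 10.53 in the unstimulated cultures of mice 2 and 4 and 5.38 in that of mouse 5. With C5a it had 9.76, 10.12 and 5.22 in the same order, and it was above background on 1 of the 2 arrays of mouse 5. With the other array at the background level, Mpeg1 was at least 21.8-fold higher in mouse 2 and at least 30.6-fold higher in mouse 4, with adjusted p-values of 0.0015 and 0.00084 from limma on the measured values. Spi1, the transcript of PU.1, had 9.29, 9.72 and 5.63 unstimulated and 9.25, 9.33 and 5.13 with C5a, and the last value was under the background level. Ptprc, the common leukocyte antigen CD45, was at background in both cultures of mouse 5, with 4.99 and 4.68, against 7.46 to 8.36 on the other arrays. The RNA of mouse 5 therefore sets only a bound, and Ptprc was at least 4.80-fold higher in mouse 2 and at least 6.22-fold higher in mouse 4. Such a bound sets the mean of the brighter mouse against the mean background level of the arrays of mouse 5. Laptm5, a lysosomal protein of blood cells, and the surface protein Cd52 had differences of -3.43 to -4.70 between mouse 5 and the other mice. Cd52 was only narrowly above background in mouse 5, with 5.45 unstimulated and 5.40 with C5a, so that its differences are little more than bounds. Cd53, a tetraspanin of leukocytes, was above background on 1 array of mouse 5 and was at least 11.9-fold and 17.6-fold higher in mice 2 and 4. Aif1, which encodes the macrophage protein IBA1, was not called, with 6.32, 6.45 and 5.44 unstimulated and 6.05, 5.94 and 5.78 with C5a.

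Promoter sequences are shown for 3 genes that differed between the mice together and for 1 that was not called. They are the 250 bases before the RefSeq start of the gene, 5′ to 3′ along the gene, from RefSeq with build GRCm38.p6. Capitals mark GAGGAA or its reverse complement TTCCTC, the core of the element that PU.1 binds, and TGANTCA, the AP-1 element. The other motifs searched, CACGTG and TATAAA, have no match in these stretches. The stretches are chr11:69666171-69666420 on the minus strand for Cd68, chr10:117282273-117282522 on the minus strand for Lyz2, chr2:14229164-14229413 on the plus strand for Mrc1, the macrophage mannose receptor, and chr1:105780473-105780722 on the plus strand for Tnfrsf11a.
Cd68: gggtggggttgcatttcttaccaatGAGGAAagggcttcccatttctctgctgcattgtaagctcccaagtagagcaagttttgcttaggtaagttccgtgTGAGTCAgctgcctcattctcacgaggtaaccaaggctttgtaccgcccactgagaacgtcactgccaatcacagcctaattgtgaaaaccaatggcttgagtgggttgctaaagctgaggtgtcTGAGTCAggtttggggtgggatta
Lyz2: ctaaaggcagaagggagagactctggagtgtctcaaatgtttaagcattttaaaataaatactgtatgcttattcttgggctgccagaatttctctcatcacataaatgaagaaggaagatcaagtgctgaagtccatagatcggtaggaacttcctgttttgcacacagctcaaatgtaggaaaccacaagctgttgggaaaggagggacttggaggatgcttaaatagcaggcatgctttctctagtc
Mrc1: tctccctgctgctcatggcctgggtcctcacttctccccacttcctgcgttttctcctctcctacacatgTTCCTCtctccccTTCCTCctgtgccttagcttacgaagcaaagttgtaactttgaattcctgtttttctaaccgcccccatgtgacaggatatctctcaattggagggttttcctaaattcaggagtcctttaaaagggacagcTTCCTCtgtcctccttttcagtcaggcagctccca
Tnfrsf11a: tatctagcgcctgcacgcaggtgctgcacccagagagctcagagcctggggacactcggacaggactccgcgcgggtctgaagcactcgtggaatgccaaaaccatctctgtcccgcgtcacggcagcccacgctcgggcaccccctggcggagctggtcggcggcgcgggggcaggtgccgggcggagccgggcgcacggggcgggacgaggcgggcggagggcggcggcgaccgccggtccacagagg

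Of the 39 genes, 25 have a promoter window in the table used here, which runs from 250 bases before to 50 bases after the start, and all 27025 genes with a window were counted, with the first listed start of each. GAGGAA on either strand stood in 15 of the 25 windows, 60.0%, against 28.3% of all windows. TGANTCA, which does not overlap with GAGGAA in the stretches shown, stood in 3 of 25, or 12.0%, against 7.93% of all. TATAAA stood in 12.0% of the windows against 14.2% of all, and CACGTG, the E-box that MITF and TFE factors bind, in 0 of 25 against 7.24% of all. The Lyz2 and Tnfrsf11a stretches hold neither GAGGAA nor TGANTCA. The share with GAGGAA was similar in the genes that differed between the mice, with 10 of 16, and in those not called, with 5 of 9. The median GC content of the windows was 47.3%, against 52.7% over all genes. These are matches of letters and not measured sites.

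Of 9 ITAM adaptors and immune receptors, 8 differed between the mice by the F test, and the same number was called lower in mouse 5 than in each of the other mice. Fcer1g, the shared γ chain of Fc receptors, had 11.21, 11.69 and 6.50 unstimulated and 10.74, 11.21 and 6.66 with C5a. Tyrobp, the adaptor DAP12, had 9.47, 9.77 and 5.78 unstimulated and 9.12, 9.39 and 5.90 with C5a. Trem2, a lipid-sensing receptor that signals through DAP12, had 9.71, 10.03 and 7.01 unstimulated and 9.30, 9.57 and 6.78 with C5a. For each of them mouse 5 lay below every array of the other mice, and all of them stayed above background there. Trem2 differed by -2.61 (SE 0.10) and -2.90 (SE 0.10) from mice 2 and 4. Lilrb4a, an inhibitory receptor, differed by -4.46 (SE 0.15) and -4.73 (SE 0.15). Fcgr2b, the inhibitory IgG receptor, differed from mouse 4 by -3.60 (SE 0.30). Fcgr3, an activating IgG receptor, was under background in mouse 5 and at least 8.71-fold and 13.5-fold higher in mice 2 and 4. Fcgr2b and Fcgr3, as well as Lilrb4a and its neighbour Lilr4b, are close copies of each other, and how far their probes hybridise to the other copy was not tested. Fcgr1, the high-affinity IgG receptor, was not called, with 6.98, 7.57 and 5.96 unstimulated and 6.65, 6.88 and 6.18 with C5a.

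The C-type lectins Clec4n and Clec7a were called higher in mouse 4 than in mouse 2. Clec4n, which encodes Dectin-2, had 7.11, 9.14 and 5.07 unstimulated and 6.96, 8.94 and 4.95 with C5a. The values fell into 3 separate steps, highest in mouse 4 and under background in mouse 5. The difference between mice 4 and 2 was 2.01 (SE 0.08, adjusted p = 0.0095 from limma). Clec7a, which encodes Dectin-1 for fungal β-glucans, had 6.77, 7.58 and 5.60 unstimulated and 6.32, 7.25 and 5.35 with C5a. Its difference of 0.87 (SE 0.09, adjusted p = 0.049) was close to the threshold. With a variance trend or with centred arrays 1 of the 39 genes was called higher in mouse 4 than in mouse 2. Among probesets naming 1 gene only, 5 were. Without mouse 5, or without either of its arrays, 1 was called, and without an array of mouse 2 or mouse 4, 0 were called.

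Of 10 scavenger, resident and activation markers, 7 were lower in mouse 5 than in each of the other mice. Marco and Msr1 encode scavenger receptors of bacteria and modified lipoproteins. Marco had 10.49, 10.49 and 6.43 unstimulated and 10.14, 9.92 and 6.45 with C5a. Msr1 had 9.48, 9.21 and 6.05 unstimulated and 8.85, 8.77 and 6.36 with C5a. Mice 2 and 4 were close to each other in both genes, and their differences of -0.11 (SE 0.16) and -0.17 (SE 0.24) were within the error. Siglec1, a sialic acid receptor of resident macrophages, differed by -2.13 (SE 0.23) and -2.59 (SE 0.23) between mouse 5 and mice 2 and 4. Ms4a6d and Ms4a7, membrane proteins of the MS4A family, were under background in mouse 5. Ms4a6d was at least 14.2-fold higher in mouse 2 and at least 21.3-fold higher in mouse 4, and Ms4a7 at least 5.07-fold and 7.02-fold.

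Cd163, Cd86 and Pf4 were not called between the mice. Cd163, the receptor for haemoglobin-haptoglobin complexes, had 4.76 to 4.88 and Cd86, a costimulator of T cells, had 4.39 to 5.15, both under background on every array. Pf4, a chemokine of platelets that resident macrophages can also make, had 5.95, 6.38 and 5.67 unstimulated and 5.69, 6.36 and 5.81 with C5a, with mouse 4 highest in both treatments. Over the 39 genes, 34 were above background on each array of mice 2 and 4, and 29 and 25 on the unstimulated and the C5a array of mouse 5. With the 99th percentile of olfactory receptors as the limit, 31 to 33 were above it in mice 2 and 4 and 11 and 14 in mouse 5.

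**Figure D2:**
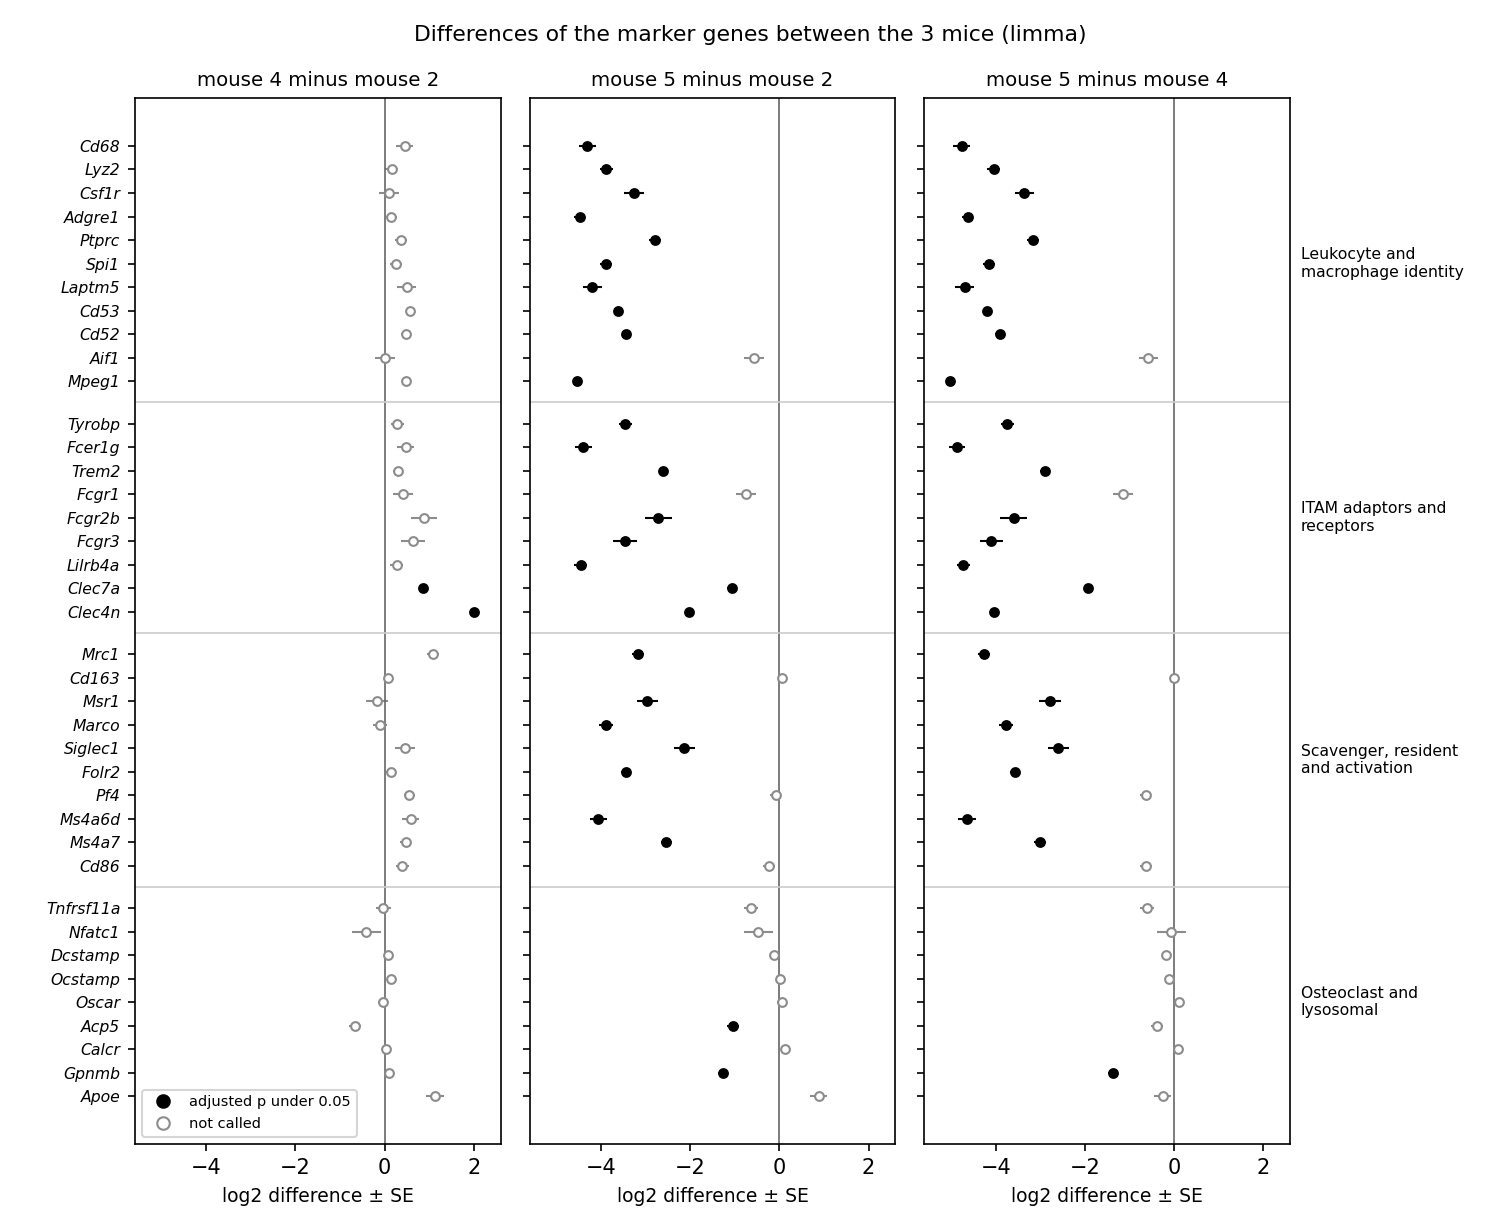
Log2 difference ± SE from limma (x axis) of each marker gene (y axis) for the 3 pairs of mice. Filled points have an adjusted p under 0.05. In the panels of mouse 5 the filled points of the upper 3 groups lie between -1.07 and -5.02, whereas most of the 9 osteoclast and lysosomal genes are open points. Values under background are drawn as measured, so that for these genes the distance is not a measured fold.

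Of 9 osteoclast and lysosomal genes, 1 differed between the mice by the F test, 2 were lower in mouse 5 than in mouse 2, and 1 was lower than in mouse 4. Of the same 9 genes, 3 were under background on every array. Gpnmb, a membrane glycoprotein of osteoclasts, macrophages and osteoblasts, had 12.16, 12.15 and 10.73 unstimulated and 11.77, 11.97 and 10.66 with C5a. Its difference was -1.27 (SE 0.11) from mouse 2 and -1.37 (SE 0.11) from mouse 4, and it stayed far above background in mouse 5. Acp5, which encodes the tartrate-resistant acid phosphatase TRAP, had 9.18, 8.56 and 7.97 unstimulated and 9.08, 8.39 and 8.23 with C5a. It was lower in mouse 5 than in mouse 2 by -1.04 (SE 0.13, adjusted p = 0.0396 from limma) and was not called by the F test (adjusted p = 0.0605). Apoe, the apolipoprotein that macrophages and many other cells secrete, had 10.86, 12.09 and 11.46 unstimulated and 10.33, 11.37 and 11.49 with C5a, so that mouse 2 and not mouse 5 had the lowest values.

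The genes of the RANK pathway and of cell fusion were not called between the 3 mice. Tnfrsf11a had 6.17 and 6.49 in mouse 5 and 6.80 to 7.07 on the other arrays, and was not called (adjusted p = 0.215 from the F test of limma). Ocstamp, a multispan protein needed for the fusion of precursors, had 5.68 to 6.07. Its fusion partner Dcstamp had 4.69 to 4.97 and was under background on all 6 arrays. Oscar, the collagen receptor that gives osteoclasts a costimulus, and Calcr, the calcitonin receptor of mature osteoclasts, were under background too, at 4.90 to 5.12 and 4.90 to 5.11. Thus 5 of the 39 genes were above background on no array, namely Cd163, Cd86, Dcstamp, Oscar and Calcr, and for these no difference could be measured.

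Further genes of macrophages and osteoclasts were taken from a separate list of 56, of which 50 were measured. Of these, 29 differed between the mice by the F test, 27 were lower and 1 higher in mouse 5 than in mouse 2, and 28 were lower than in mouse 4. Itgb2, the common β2 integrin chain of leukocytes, had 9.69, 10.43 and 5.86 unstimulated and 9.62, 10.17 and 5.54 with C5a. Ctss, the cathepsin of antigen-presenting cells, had 11.05, 11.82 and 6.19 unstimulated and 10.57, 11.47 and 6.11 with C5a. Both repeated the step between mouse 5 and the others. C5ar1, the receptor of the stimulus, had 9.11, 9.41 and 5.17 unstimulated and 8.84, 8.77 and 6.09 with C5a, and was lower in mouse 5 than in mouse 2 and mouse 4 by -3.34 and -3.46 (adjusted p = 0.0302 and 0.0313 from limma). C5ar1 was above background on 1 of the 2 arrays of mouse 5. C3ar1, the receptor of C3a, was under background on both and at least 25.5-fold and 31.6-fold higher in mice 2 and 4. The osteoclast proton pump subunit Atp6v0d2, chosen after its values were seen, had 8.02, 10.01 and 5.31 unstimulated, differed between the mice by the F test (adjusted p = 0.0126 from limma) and was at least 4.45-fold and 19.0-fold higher in mice 2 and 4 than in mouse 5. Other osteoclast genes of this list did not share its step. Ctsk, Mmp9, Tcirg1, Clcn7, Ostm1 and Src were not called by the F test (adjusted p of 0.102 to 0.913 from limma) or between any pair of mice. Car2 was under background on every array. Itgb3 was called by the F test (adjusted p = 0.014), with its lowest values in mouse 2. Whether the receptor transcripts came from the same cells as the marker genes was not tested.

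Markers of other blood and vessel cells did not separate the mice. Of 10 neutrophil, 5 B cell, 7 T and NK cell, 6 mast cell, 3 megakaryocyte, 3 erythroid and 7 endothelial genes measured, 0 were called by the F test or between any pair of mice, and the medians of these lists were 4.64 to 5.61 on all arrays. Of each list, 0 to 6 genes were above background on an array. Genes under background on every array included Ly6g of neutrophils with 3.94 to 4.35, Cd79a of B cells with 4.18 to 4.46 and Cd3d of T cells with 4.19 to 4.41. Above background on all 6 arrays were S100a8, Mpo, Camp and Csf3r of neutrophils, Cd79b and Cd22 of B cells and Cd3e of T cells. So were Itga2b of megakaryocytes, Epor of erythroid cells and Cdh5, Tie1 and Vwf of endothelium. Of these genes, S100a8, Mpo, Csf3r, Cd3e, Epor, Cdh5 and Tie1 stayed under the 99th percentile of olfactory receptor probesets on every array. Of 8 dendritic cell genes, 1 differed between mice, the integrin chain Itgax, with 6.17, 8.34 and 5.34 unstimulated and 6.25, 7.80 and 5.98 with C5a. Cd74, the invariant chain of MHC class II, had 8.58 and 7.20 in mouse 4 and 5.23 to 6.22 on the other arrays. Both genes were highest in mouse 4, and Cd74 was not called.

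Osteoblast genes differed between the mice as well. Of 11 measured osteoblast and osteocyte markers, 5 differed by the F test, and 3 of them were lower in mouse 5 than in mouse 2 and 5 lower than in mouse 4. Mice 2 and 4 differed too, with 3 genes higher and 1 lower in mouse 4. The median difference of mouse 5 over the 11 genes was -0.20 from mouse 2 and -0.74 from mouse 4. Ibsp, the bone sialoprotein of mature osteoblasts, had 11.75, 12.88 and 7.56 unstimulated and 11.26, 12.62 and 7.02 with C5a. Alpl, the alkaline phosphatase of mineralizing cells, had 10.39, 11.42 and 9.63 unstimulated and 10.36, 11.22 and 9.29 with C5a. The matrix genes Col1a1 and Sparc were not called. All 8 fibroblast and stromal markers were above background on every array. In mouse 5, 3 were higher and 1 lower than in mouse 2, and 2 were higher and 0 lower than in mouse 4. The median differences of the 8 genes were 0.06 and -0.06. Thy1 was higher in mouse 5 than in mice 2 and 4 by 1.37 (SE 0.11) and 0.91 (SE 0.11), and Dcn was lower than in mouse 2 by -0.70 (SE 0.08). The part of these differences in the low macrophage values of mouse 5 was not tested.

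**Figure D3:**
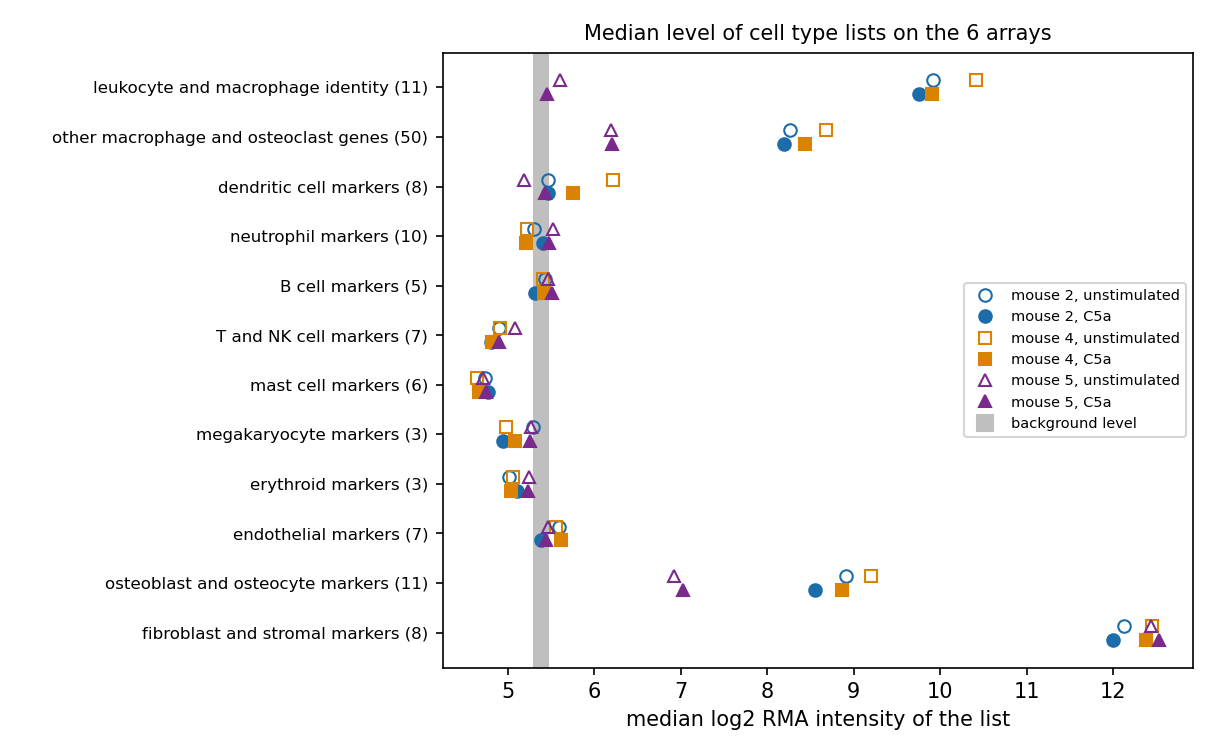
Median log2 RMA intensity (x axis) of lists of cell type genes (y axis, number of measured genes in brackets) on the 6 arrays. Symbols and the grey background band are as in the plot of all marker genes. The medians of the macrophage lists split mouse 5 from mice 2 and 4. The osteoblast median does so too, but it falls on a different gene in each mouse. Within genes, the median osteoblast difference of mouse 5 was -0.20 from mouse 2 and -0.74 from mouse 4. The lists of other blood cells and of endothelium lie near the band, except for dendritic cell genes in mouse 4.

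The second question was whether 4 h of C5a altered these transcripts within a mouse. None of the 39 genes was called at an adjusted p under 0.05 by limma with the mouse as a block, where 0.0112% of all probesets were called, all of them lower. At an unadjusted p under 0.05, 2 genes were higher, where 7.61% of all probesets were, and 9 were lower, where 8.58% were. Of the 19938 genes with 1 probeset each, 1647 were higher and 2376 lower at that limit, larger shares than over all probesets. Without the mouse as a block 2 of the 39 genes were higher and 0 lower, where 5.41% and 5.55% of all probesets were. At the thresholds that the methods of the study set, an unadjusted p under 0.05 with a fold change of at least 1.5, 1 gene was higher and 1 lower, beside 1.71% and 1.57% of all probesets. The median of the 39 log2 differences was -0.21, against -0.01 over all genes. Within mice 2, 4 and 5 the medians were -0.32, -0.39 and 0.11.

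Most of the marker genes had lower values with C5a in mice 2 and 4, but not in mouse 5. In mouse 2, 33 of 39 genes were lower, or 84.6% against 48.4% of all genes, and in mouse 4, 32 were, or 82.1% against 51.8%. In mouse 5, where most of them were near background, 13 were lower, or 33.3% against 53.5%. In mice 2 and 4 together, 31 of 39 were lower in both, beside 25.7% of all probesets, and these 31 are among the 34 genes above background on all arrays of both mice. In 3 of 3 mice 12 genes were lower and 4 higher, beside 17.7% and 18.3% of all probesets, and of these 12 genes 6 were above background on both arrays of mouse 5. Of the 19938 genes with 1 probeset each, 4575 were lower and 3791 higher in 3 of 3 mice. The genes of a mouse were read from the same pair of cultures, so that they are not independent observations of C5a. With 1 array per culture, whether the mice differ in their response could not be tested.

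**Figure D4:**
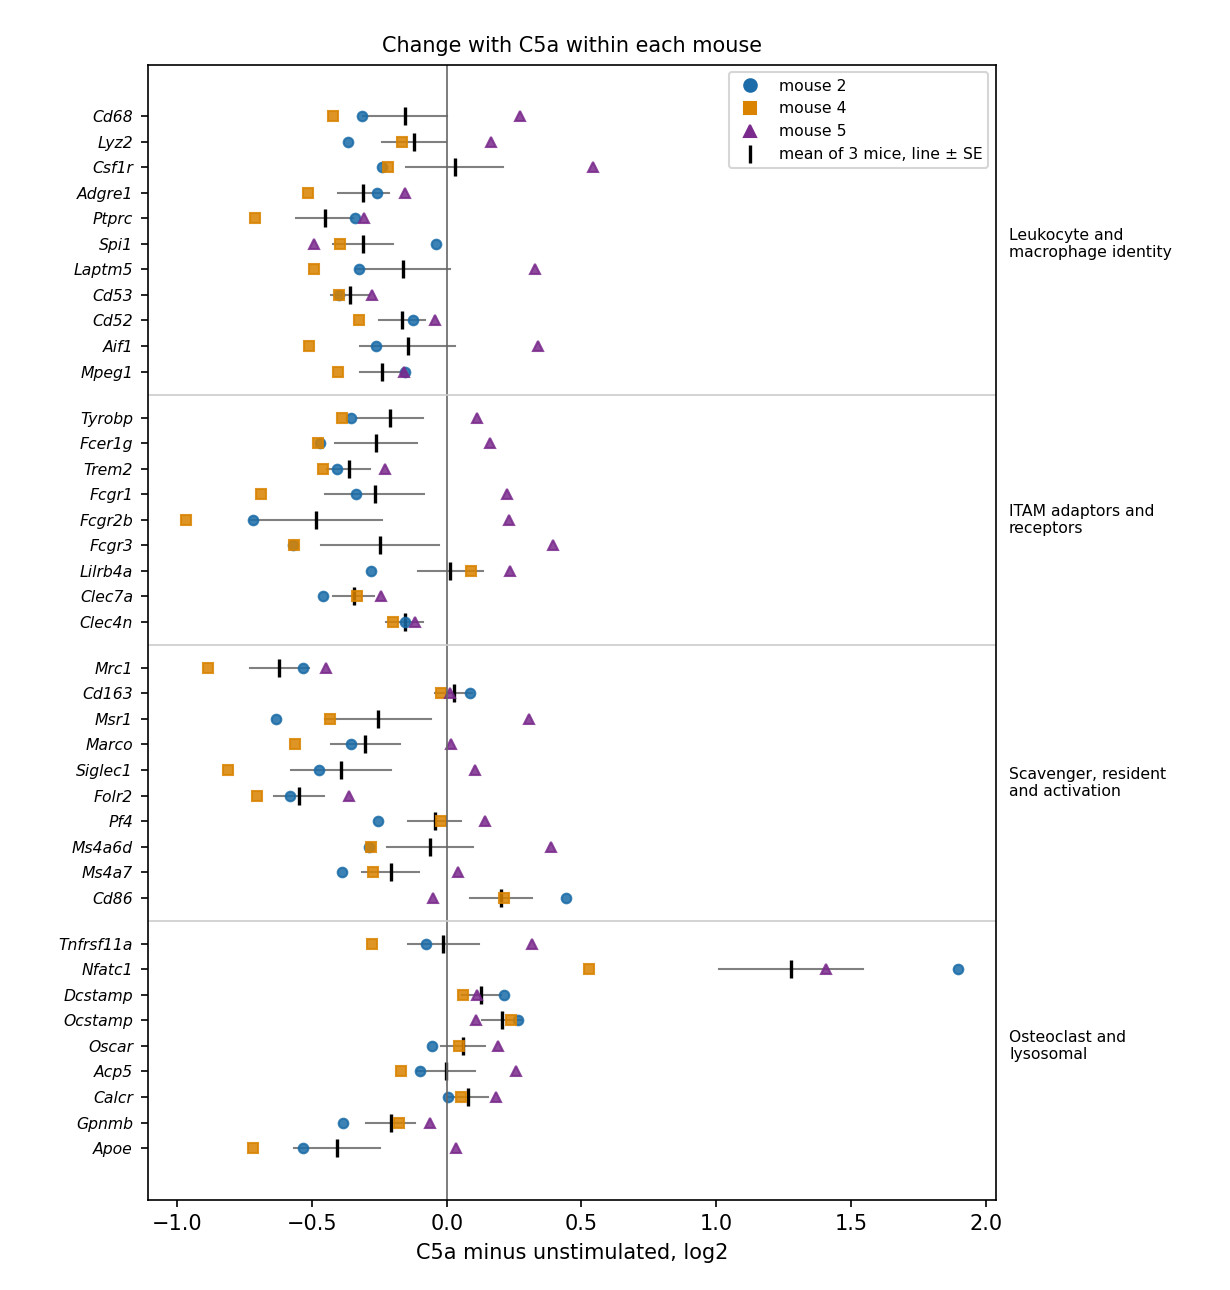
C5a minus unstimulated on the log2 scale (x axis) within each mouse for the 39 marker genes (y axis), with the mean of the 3 mice as a bar and its SE from limma as a line. Circles and squares (mice 2 and 4) lie mostly left of 0 and triangles (mouse 5) on both sides, and Nfatc1 stands to the right at 1.28.

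The 2 genes with the largest negative differences are resident macrophage receptors. Mrc1 had 9.19, 10.45 and 5.98 unstimulated and 8.66, 9.57 and 5.53 with C5a in mice 2, 4 and 5. Folr2, the folate receptor β, had 9.55, 9.76 and 6.01 unstimulated and 8.97, 9.05 and 5.65 with C5a. Every C5a culture was below its own unstimulated culture, although the groups overlapped because the mice differ so widely. In mouse 5 both genes were above background but under the 99th percentile of olfactory receptor probesets, 6.22 unstimulated and 6.24 with C5a. Their decrease there was thus measured close to background. The differences were -0.62 (SE 0.11, adjusted p = 0.114) for Mrc1 and -0.55 (SE 0.09, adjusted p = 0.112) for Folr2 in limma. When only probesets naming 1 gene were tested, both passed, with adjusted p-values of 0.0461 and 0.0441. Over all alternatives their adjusted p-values were between 0.0461 and 0.963 and between 0.0441 and 0.965.

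Of the other 7 genes that were lower at an unadjusted p under 0.05, 5 belong to leukocyte identity and 2 to the immune receptors. The differences were -0.45 (SE 0.11) for Ptprc, -0.36 (SE 0.07) for Cd53, -0.31 (SE 0.10) for Adgre1, -0.31 (SE 0.11) for Spi1, -0.24 (SE 0.08) for Mpeg1, -0.36 (SE 0.08) for Trem2 and -0.35 (SE 0.08) for Clec7a. Their adjusted p-values were 0.127 to 0.279. All had lower values in 3 of 3 mice, but Ptprc was under background on both arrays of mouse 5, and Cd53, Spi1, Mpeg1 and Clec7a on its C5a array, so that their direction in mouse 5 is not a measured decrease. The defining markers Cd68, Lyz2 and Csf1r had differences of -0.15 (SE 0.15), -0.12 (SE 0.12) and 0.03 (SE 0.18), since they were lower in mice 2 and 4 and higher in mouse 5. Without mouse 5, 5 genes passed the thresholds of the methods on the lower side, beside 2% of all probesets. They were Fcgr2b with -0.84 (SE 0.11), Mrc1 with -0.71 (SE 0.13), Siglec1 with -0.64 (SE 0.13), Folr2 with -0.64 (SE 0.10) and Apoe with -0.63 (SE 0.11), and 0 of them had an adjusted p under 0.05. Without mouse 4, 0 genes passed on the lower side, beside 2.1% of all probesets, and without mouse 2 it was Mrc1 alone, beside 1.34%.

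Nfatc1, the master transcription factor of osteoclasts, which is active in other cells too, was the gene with the largest difference in either direction. It had 8.18, 8.45 and 7.95 unstimulated and 10.07, 8.97 and 9.35 with C5a. All 3 C5a cultures were above all 3 unstimulated cultures, with means of 8.19 ± 0.25 and 9.47 ± 0.56 (SD, n = 3). Values of the groups did not overlap for 2 of the 39 genes, beside 15.2% of all probesets and 3712 of the 19938 genes with 1 probeset each. The difference was 1.28 (SE 0.27), or 2.42-fold, with an adjusted p of 0.134 from limma, and it was 1.90, 0.53 and 1.41 within mice 2, 4 and 5. Without mouse 4 it was 1.65 (SE 0.15, adjusted p = 0.0798) and without mouse 2 it was 0.97 (SE 0.25, adjusted p = 0.397). It was not called between the mice.

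Ocstamp was the other gene without overlap, with 5.68, 5.83 and 5.78 unstimulated and 5.95, 6.07 and 5.89 with C5a. Its difference was only 0.20 (SE 0.07, adjusted p = 0.277 from limma). All values of Ocstamp were above the background level but under the 99th percentile of olfactory receptor probesets, which was 6.16 to 6.24. Dcstamp and Calcr were higher in 3 of 3 mice as well, by 0.13 (SE 0.07) and 0.08 (SE 0.07), but under background throughout. Acp5 with -0.0036 (SE 0.11) and Tnfrsf11a with -0.01 (SE 0.13) had 95% intervals of -0.29 to 0.28 and -0.35 to 0.33. Apoe had -0.41 (SE 0.16) and Gpnmb -0.21 (SE 0.09), with adjusted p-values of 0.323 and 0.365.

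Of the 50 further genes of macrophages and osteoclasts, 0 were called with C5a, 2 were higher and 13 lower at an unadjusted p under 0.05, beside 7.61% and 8.58% of all probesets, and the median was -0.18. Of the 19938 genes with 1 probeset each, 1647 were higher and 2376 lower at that limit. Without the block 0 of the 50 genes were higher and 1, Maf, was lower. Itgb3, the integrin β3 chain of the osteoclast vitronectin receptor, had 6.53, 8.21 and 7.29 unstimulated and 7.41, 9.32 and 8.55 with C5a. It lay higher in each mouse, by 1.08 (SE 0.10, adjusted p = 0.0796 from limma). It was also the gene of this list that was higher in mouse 5 than in mouse 2, and its values were highest in mouse 4 and lowest in mouse 2. Maf, a transcription factor of macrophages and other cells, had 10.37, 10.19 and 10.21 unstimulated and 9.70, 9.55 and 9.80 with C5a, a difference of -0.57 (SE 0.08, adjusted p = 0.102 from limma) without overlap.

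The cytokines that feed this lineage were measured in the same cultures. Csf1, the transcript of M-CSF, had 11.61, 11.38 and 11.35 unstimulated and 12.30, 11.98 and 12.16 with C5a, a difference of 0.70 (SE 0.08, adjusted p = 0.0869 from limma) without overlap. Tnfrsf11b, which encodes the RANKL decoy osteoprotegerin, had 10.18, 10.15 and 10.31 unstimulated and 12.23, 10.60 and 10.79 with C5a, a difference of 0.99 (SE 0.35, adjusted p = 0.27 from limma). The C5a culture of mouse 2 was the highest, and the groups did not overlap. Tnfsf11, the transcript of RANKL, differed by -0.17 (SE 0.17) and Il34, the other ligand of the M-CSF receptor, by -0.29 (SE 0.07), neither of them called. Levels of Csf1, Tnfsf11 and Tnfrsf11b were not called between the mice, while Il34 was lower in mouse 4 than in mouse 2 by -0.83 (SE 0.09, adjusted p = 0.047).

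**Figure D5:**
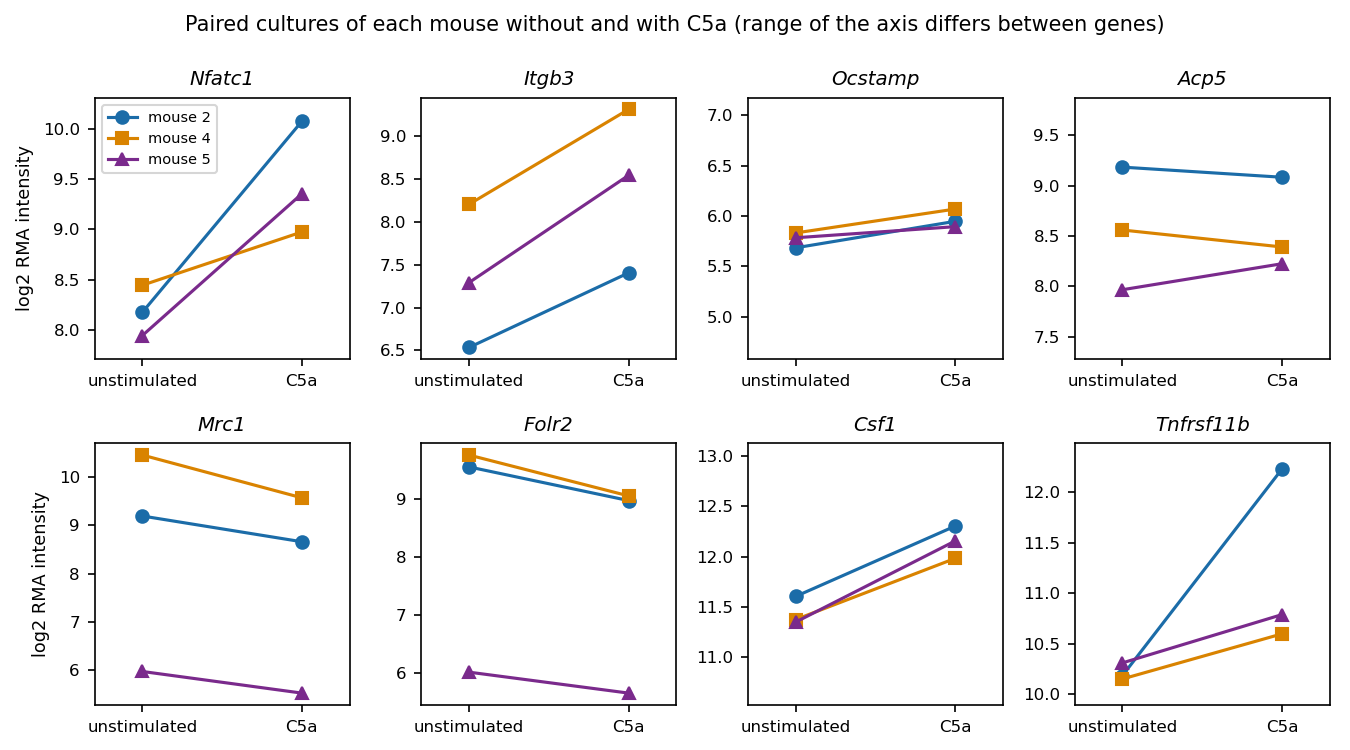
Log2 RMA intensity (y axis, with a range of its own for each gene) of 6 genes of macrophages and osteoclasts and of Csf1 and Tnfrsf11b in the paired cultures of mice 2, 4 and 5 (lines) without and with C5a (x axis). Nfatc1, Itgb3, Csf1 and Tnfrsf11b have rising lines in all mice, Mrc1 and Folr2 falling lines, and Acp5 lines of both directions.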

How the data were processed

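The authors hybridised the RNA of each culture to a Mouse Gene 1.0 ST array, normalized by the robust multiarray average (Affymetrix Expression Console and BRB-ArrayTools, versions not given in the sources used here) and deposited log2 intensities, which were used unchanged. Limma 3.58.1 (R 4.3.3) was fitted to 35556 probesets with mouse number and treatment as terms, with a Benjamini-Hochberg adjustment over the whole table. Mouse numbers pair the cultures per the labels and the series design, and cultures of a mouse correlated in their deviations from the group means at 0.495 to 0.684, those of different mice at -0.446 to -0.0353. Such deviations cancel out within a group, so that the negative values between mice are in part fixed by the calculation. Of the probesets, 21789 name 1 gene, 1621 several and 12146 none, by the platform annotation. The fold threshold of the methods was read as at least 1.5. The marker genes and lists were chosen with earlier results of these data known. Outside the 39 marker genes, 122 of 139 listed genes were measured, and most of those named are the receptors, cytokines and matrix genes of the rule and up to 4 per list and comparison with the smallest p. S100a8, Mpo, Atp6v0d2 and osteoclast genes set beside Atp6v0d2 are named outside this rule. The fit was run on simulated data with a treatment shift larger than the C5a difference of any of the 39 genes. How well it finds smaller differences was not tested. The number of arrays limits the precision. Alternatives were no block, unpaired and paired t-tests, a variance trend, a filter on dim probesets, probesets naming 1 gene, median centring, quantile normalization, another probeset per gene, other background limits, and leaving out arrays or mice. Cultures stimulated for other times are not analysed here.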

Additional observations from a re-analysis of the deposited data

How the results depend on the processing

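Without the replicate block, as with the t-test of the methods, 0 of the 39 genes were below unstimulated past both thresholds of the methods, against 1, and with the paired t-test 0 were higher, against 1. With the unpaired t-test of the methods 2 of the 39 genes had an unadjusted p under 0.05. Adjusted calls were 0 higher and 0 lower in each of these fits, and without the block the genes lower at an unadjusted p under 0.05 were 0 in place of 9, and those higher 2 as before. With only probesets that name 1 gene, 2 were lower at an adjusted p under 0.05 (Mrc1, -0.62, and Folr2, -0.55). The number lower at the thresholds of the methods was 0 to 5 when arrays or mice were left out. For mouse 4 over mouse 2, 2 genes were higher in the reported fit, 1 with a variance trend or median centring, 5 with probesets naming 1 gene, and 0 to 1 when an array or mouse 5 was left out. For mouse 5 under mouse 2 the count was 0 to 26 when arrays or mice were left out. With the 99th percentile of olfactory receptor probesets as background, 11 and 14 genes were above it on the unstimulated and C5a arrays of mouse 5, and with the median of all probesets 17 were on the unstimulated one. The cause of these shifts was not tested. Under quantile normalization the C5a differences of Tnfrsf11a and Acp5 changed sign, to 0.0195 and 0.0031. When an array or a mouse was left out, the C5a difference changed sign for Acp5 (-0.13 to 0.0788), Aif1 (-0.39 to 0.0379), Cd163 (-0.00397 to 0.0496), Csf1r (-0.23 to 0.16), Laptm5 (-0.41 to 0.000596), Lilrb4a (-0.0968 to 0.16), Ms4a6d (-0.29 to 0.0524), Oscar (-0.00429 to 0.12), Pf4 (-0.14 to 0.0601) and Tnfrsf11a (-0.18 to 0.12), none of them called in the reported fit.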
